A study of Apis mellifera with 48 samples.

Results

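The 150 genes described here varied most from bee to bee among bees of the same sex and activity. They were chosen from 15314 gene identifiers of the honey bee (Apis mellifera), of which 6900 had a mean of at least 10 CPM over 48 libraries. CPM is a gene's read count relative to all gene reads of its library, on the usual scale. Of those 6900 genes, 4859 had similar levels in the sexes and at both collection times: the median in drones was 0.67 to 1.5 times that in workers, and the afternoon median was 0.8 to 1.25 times the morning median in each sex. The 150 members were the genes among these 4859 with the highest standard deviation (SD) of log2(CPM + 1), pooled over the 4 groups. That SD and the sex and time medians chose the members, so they are given below as a description and were not tested.

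The mushroom bodies are paired centres of the insect brain known for their role in olfactory learning and memory. Drones are haploid sons that develop from unfertilised eggs and carry chromosomes of the queen alone, while workers are diploid daughters of the queen and of the drones with which she mated. Bees of a naturally mated colony therefore differ genetically: drone brothers receive different recombined copies of the queen's genome, and workers differ in father as well.

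RNA was sequenced from mushroom bodies dissected from single bees, with 12 bees in each of 4 groups. Active drones were collected at 3 pm before they flew, and inactive drones at 9 am; active and inactive workers were collected at the same clock hours, so activity and clock time were a single division of the bees. Behaviour and marks identified the active bees, per the labels, which give no ages. All 48 bees came from 3 colonies kept at the University of Illinois, each headed by an unrelated, naturally mated queen; workers numbered 10, 10 and 4 from colonies 1, 2 and 3, and drones 7, 3 and 14. Bees were frozen in liquid nitrogen, and poly-adenylated RNA went into directional libraries sequenced in 7 pools. The 48 bees are separate animals, though nestmates share their queen and their hive.

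Libraries held 6.69 to 27.1 M gene reads, with a median of 13.9 M. No pair of libraries held identical counts. Reads outside annotated genes made up 24.5% to 31.8% of a library's entries, and ambiguous reads 0.707% to 1.07%. The library of inactive worker 7 stood apart: it was the bee farthest from its group mean in 43 members (28.7%), against 15.8% of the 6900 genes. A far bee raises the SD that chose the members, and many members move together, so these shares are a description. The tests were also run without this library, and counts of called members that changed are given below. None of the identifiers could be matched to a gene name, so genes are given by identifier without function, and the dissected tissue could not be checked against markers of mushroom body neurons, glia or glands.

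Members were mostly weakly expressed genes, but their spread was far above counting error. Their pooled SD ran from 0.503 to 1.89 with a median of 0.570 on the log2 scale, beside a median of 0.240 for the 4859 genes they were drawn from. In 23 members it was at least 0.7, and in 6 at least 1. Mean levels ran from 10.02 to 1246 CPM with a median of 20.2 CPM. In all, 110 members (73.3%) lay under 30 CPM, against 33.1% of the 4859 genes. The variance that random sampling of reads alone would give was at most 5.05% of a member's pooled variance, and its median was 2.42%. The members just inside the limit were GB53434, with an SD of 0.5033, and GB47472, with 0.5026, and the genes just outside were GB41889, with 0.5021, and GB49174, with 0.5018. The limit therefore divided a continuous range.

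The 4 members with the highest pooled SD varied in an almost all-or-none way. GB50709 had the highest pooled SD, 1.89. In active workers its level ran from 23.6 to 56.7 CPM with a median of 38.3, and in inactive workers from 0.0717 to 58.3 CPM with a median of 41.9. In active drones it ran from 0.504 to 77.4 CPM with a median of 59.3, and in inactive drones from 0.0842 to 99.1 CPM with a median of 71.2. All 6 low bees had 1 to 7 reads of this gene: active drones 4 and 7, inactive drones 6 and 7, and inactive workers 6 and 7. Of these, active drone 4, inactive drone 6 and both workers belonged to colony 2, and both drones numbered 7 to colony 3. All remaining drones were at 53.1 CPM or more and all remaining workers at 20.4 CPM or more, so an empty interval of 3.64 on the log2 scale, measured from group means, parted the 6 bees from the other 42. These levels are of counted reads, and whether the RNA itself was missing in the low bees was not tested. In bulk tissue, fewer cells that express a gene and less RNA per cell cannot be told apart.

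GB43716 was one of the stronger members, with a mean of 854 CPM, and had a pooled SD of 1.66. It was near absent in active drone 2, at 1.57 CPM, and in inactive drone 3, at 4.52 CPM, and both were drones of colony 1. The other 22 drones ran from 613 to 1210 CPM and the 24 workers from 506 to 1050 CPM. No bee lay in between. GB51371, with a mean of 381 CPM, was likewise near absent in drones of colony 1 only: active drone 2 had 1.24 CPM and inactive drone 1 had 1.16 CPM, while the remaining drones had 275 to 566 CPM and the workers 139 to 685 CPM. Active drone 2 thus had few counted reads of both genes, whereas the second drone differed between them.

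GB47579 was low in 5 bees, all of colony 1: active drone 1, inactive drones 2, 4 and 5, and inactive worker 3. These had 0.747 to 3.28 CPM, and the other 43 bees 33.1 to 87.9 CPM. An empty interval of 2.28 on the log2 scale separated them. In GB54069 the low bees were active drones 5 and 7 of colony 3, at 3.88 and 3.96 CPM, and inactive drone 2 of colony 1, at 1.15 CPM. The other drones ran from 15.3 to 38.2 CPM and the workers from 8.76 to 40.3 CPM. These 3 drones lay below every other bee.

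Other members had bees far above the rest. GB49790 had the highest mean of all members, 1246 CPM. Active drones 5 and 7 had 3384 and 3730 CPM, and inactive drones 9 and 10 had 3423 and 4930 CPM. All 4 were drones of colony 3, and the other 44 bees ran from 612 to 1634 CPM. Active drones 5 and 7 were also the active drones low in GB54069. GB43053 was highest in active drone 1 of colony 1, at 188 CPM, with the next bee, active worker 8, at 53.2 CPM and the lowest, inactive worker 5, at 0.741 CPM. The same drone had 2992 CPM of GB47977, a member named here after its values were seen, whose other bees ran from 184 to 690 CPM. The deviations of GB43053 and GB47977 from their group means correlated with r = 0.85 over the 48 bees. Active drone 1 alone held 26.9% and 49.2% of their sums of squares, and r without this drone was not computed. GB41240, with a pooled SD of 0.895, was highest in active drone 9, at 126 CPM, and ran from 4.99 to 46.7 CPM in the other bees.

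**Figure D1:**
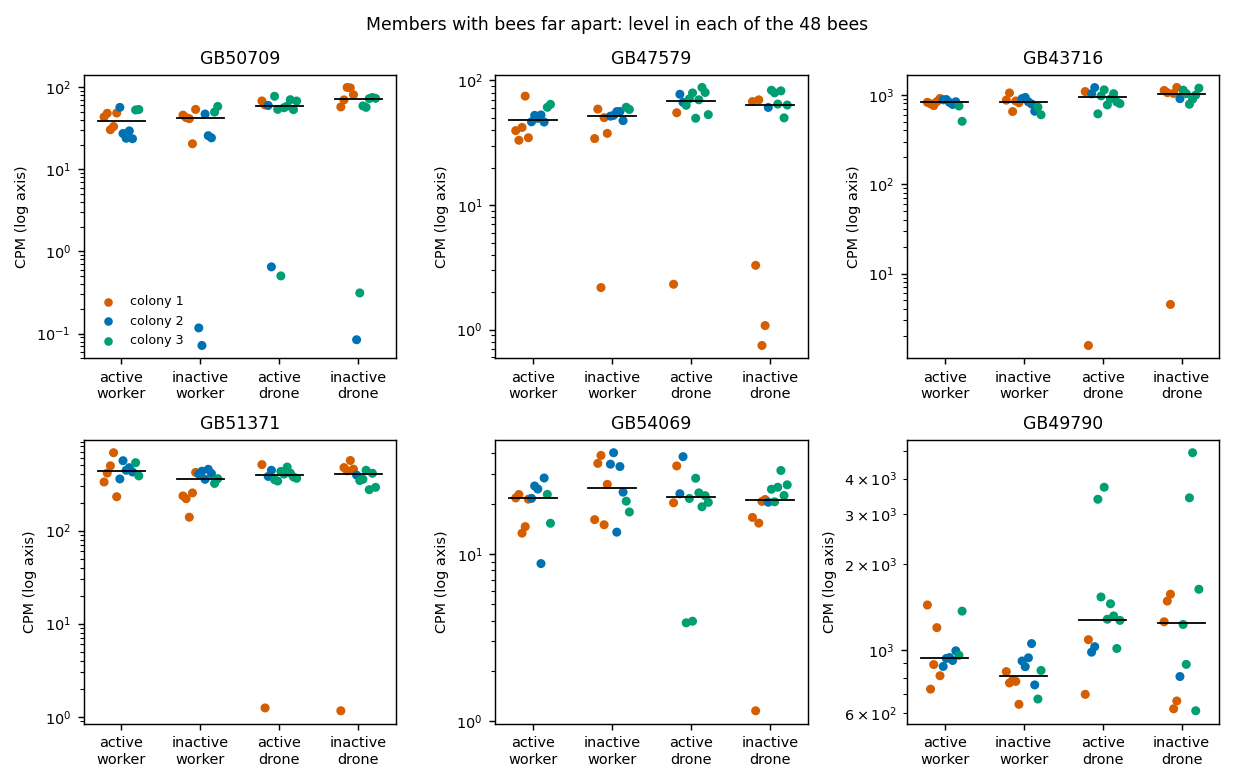
Level of 6 members in each of the 48 bees, in CPM on log axes, by group, with colony in colour and a line at each group median. A few bees lie far below the rest in GB50709 (6 bees), GB47579 (5), GB43716 (2), GB51371 (2) and GB54069 (3), and 4 drones of colony 3 lie above the rest in GB49790.

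A bee was counted as near absent for a gene when its CPM was under 1/8 of its group's median. By this measure 10 members (6.67%) were near absent in at least 1 bee, against 115 of the 6900 genes (1.67%); since a near-absent bee raises the SD that chose the members, these shares are a description. The 10 members were near absent in drones only in 5 cases, in workers only in 3 and in both sexes in 2; among the 115 genes these numbers were 36, 45 and 34. The 10 members held 15 drones and 8 workers, counting a bee once for each gene. GB48785, named after its values were seen, had a more graded form: 8 drones of all 3 colonies had 1.55 to 4.63 CPM, the other drones 9.18 to 17.9 CPM, and the workers 5.30 to 19.6 CPM. Every worker lay above these 8 drones. The farthest bee held a median of 14.8% of a member's sum of squares, against 13.9% for the 6900 genes. Its share was over 50% in 2 members, with 52.9% the highest. Membership still depended on single bees near the limit: leaving out 1 library kept 115 to 145 of the 150 members.

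The gene most like GB50709, by the correlation of deviations from group means over the 48 bees, was no member. GB42571 (r = 0.65, Spearman's rho 0.51) had 0 to 0.369 CPM in 7 bees. The other 41 had 12.4 to 38.6 CPM in drones and 12.9 to 30.1 CPM in workers. Most drones lay above every worker in this gene, and the rule required similar medians in the sexes. Among the 7 were 4 of the 6 bees low in GB50709, namely active drone 4, inactive drone 6 and inactive workers 6 and 7, all of colony 2. The other 3 low bees of GB42571 were active workers 8 and 10 and inactive worker 9, also of colony 2, so that all 7 belonged to that colony. Both colony 3 drones low in GB50709, active drone 7 and inactive drone 7, had ordinary levels of GB42571, 34.3 and 35.4 CPM. The next most alike, GB45836 (r = 0.57) and GB40110 (r = 0.53), had no near-absent bees: their lowest levels were 9.75 and 36.9 CPM.

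The members fell into a large group of genes that moved together, a small group, and others that varied alone or in groups of 2 to 4. Over the 11175 pairs of members, 33.7% had a correlation above 0.5 between their deviations from group means, against 11.3% of all pairs among the 6900 genes. Only 0.107% of member pairs were under -0.5, against 2.06% of all pairs. Average linkage on 1 minus r, with the tree parted at a height of 0.5, gave clusters of 87 and 11 members. The remaining 52 members were in neither: 30 stood alone, and 22 lay in 9 groups of 2 to 4. Mean r was 0.80 within the large cluster, 0.72 within the small one and -0.14 between them. Clusters were drawn from the same bees, so these values are descriptions.

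The clusters were much the same in each sex. Clusters drawn in workers alone held 89 members, with all 87 of the large cluster among them, and 10 members, all of the small cluster. In drones, which were not used to draw them, these sets had a mean r of 0.74 and 0.78. Clusters drawn in drones alone had 86 members, all of the large cluster, and the same 11 as the small one, with a mean r of 0.83 and 0.66 in workers. Workers alone also gave a set of 6 members with a mean r of 0.59, which was 0.099 in drones.

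**Figure D2:**
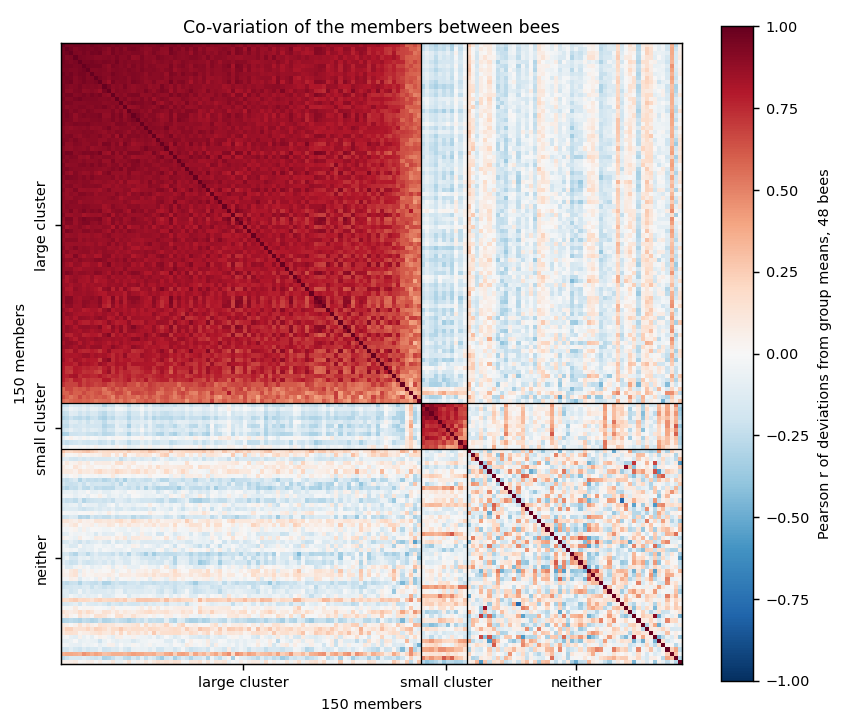
Pearson correlation, over 48 bees, of the deviations of log2(CPM + 1) from group means for each pair of the 150 members, with red for positive and blue for negative values. The block of 87 members has a mean r of 0.80, the block of 11 has 0.72, and the other 52 members, which fall in no cluster of at least 5, include 22 in groups of 2 to 4.

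The members of the large cluster rose and fell together, from 0.409 to 1.85 times the geometric group mean of CPM + 1 when averaged over the cluster. Its leading members, by mean r to the rest of the cluster, were GB47831 (0.88) and GB47719 (0.87). GB47831 ran from 34.8 to 93.95 CPM in active workers (median 69.2), from 22.9 to 148 CPM in inactive workers (median 84.7), from 47 to 114 CPM in active drones (median 76.7) and from 37.1 to 140 CPM in inactive drones (median 72.5). The groups overlapped throughout, and the widest ranges were those of the inactive bees. GB47719 ran from 8.39 to 68.4 CPM in inactive workers and from 19.9 to 55.8 CPM in active drones. GB51963 and GB47232, the members of the cluster with the highest pooled SD (0.896 and 0.894), ran from 0.932 to 33.6 CPM and from 2.93 to 40.4 CPM over all bees. In GB51963 an empty interval of 0.60 on the log2 scale lay above the 7 lowest bees.

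Averaged over the 87 genes, the lowest bees were inactive worker 7 (deviation of -1.29 from its group mean on the log2 scale), inactive drone 4 (-1.14), inactive worker 6 (-1.02) and inactive drone 12 (-0.85). The highest were inactive worker 10 (0.88), inactive drone 11 (0.88) and inactive drone 1 (0.87). Low and high bees came from all 3 colonies: colony held 0.233% of the variance of this mean deviation and pool 12.6%. Pool held 11.2% without the single library of pool 7. A factor with more levels takes up more variance, so the shares of 7 pools and 3 colonies are not directly comparable. Without the 4 lowest libraries the cluster kept 84 of its genes, and the 87 had a mean r of 0.71.

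The mean deviation of the large cluster spread more widely in inactive than in active bees. Its SD was 0.68 in inactive and 0.35 in active workers, and 0.65 in inactive and 0.27 in active drones. Gene by gene, spread was compared with limma on absolute deviations from group medians. These deviations are part of the pooled SD that chose the members, and a gene wide in inactive bees alone could qualify through them, so the counts of members are a description and nothing is read from them against all genes. None of the 150 members passed at an adjusted p of 0.05, and 0% of the 11167 genes tested did. The spread was the wider in active bees in 37 members and in 27.6% of all genes. At an unadjusted p below 0.05 were 64 members and 15.5% of all genes (1731). Of the 87 members of the cluster, 86 had the wider spread in inactive bees and 59 were under that unadjusted limit. Because these genes move together, the 59 are not separate observations. The lowest p among members was that of GB44693, whose mean absolute deviation was lower in active bees by 0.34 ± 0.09 (SE) on the log2 scale (limma, adjusted p = 0.135, 24 bees each). For GB45838 the value was -0.47 ± 0.13 (limma, adjusted p = 0.155).

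**Figure D3:**
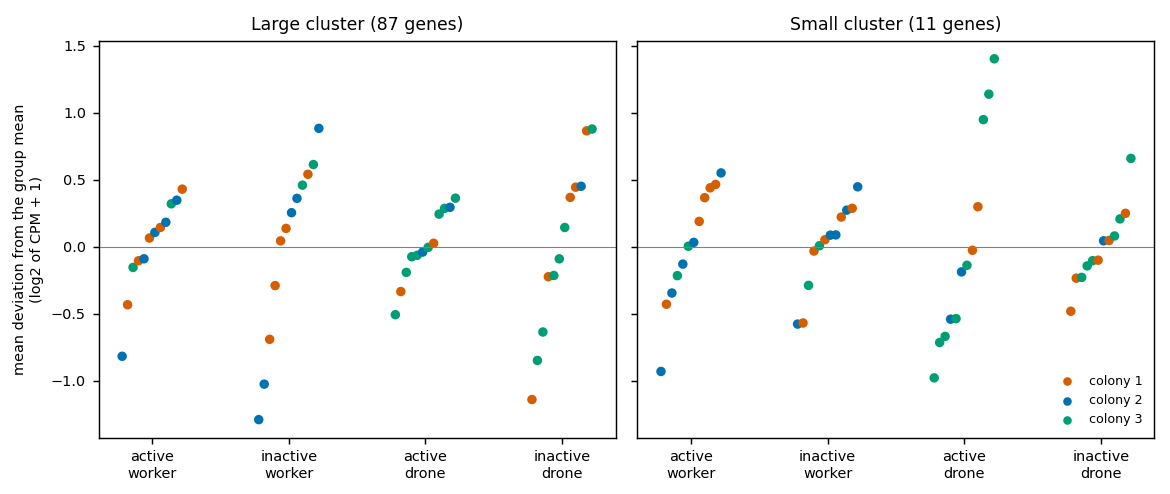
Mean deviation of the members of each cluster from the group mean in log2(CPM + 1), for each of the 48 bees sorted within its group, with colony in colour. The large cluster runs from -1.29 to 0.88 and spreads most in inactive bees; in the small cluster active drones 6, 9 and 8 lie highest, at 0.95 to 1.40.

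Library measures moved with the large cluster. Each measure was taken as its deviation from the group mean before it was correlated. The mean deviation of the cluster correlated over the 48 bees with the share of reads outside genes (r = 0.57, rho 0.58, and r = 0.53 without the 2 bees farthest from the median), with r = 0.69 in workers and 0.41 in drones. It correlated negatively with the share of ambiguous reads (r = -0.62, rho -0.63, and -0.60 without 2 bees). With the number of genes at 10 CPM or more it correlated at r = 0.98, rho 0.96 and 0.98 without 2 bees, and members near that level enter this count themselves. The scaling factor of the trimmed mean of M values (TMM), which ran from 0.862 to 1.15, had r = 0.93, rho 0.91 and 0.91 without 2 bees. This factor is computed from the gene counts of the same libraries, so it is not independent of the cluster. Total depth had r = -0.18, rho -0.23 and -0.32 without 2 bees. These are descriptions over 5 of the library measures, and how much of the cluster's variation they account for was not tested.

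The count test with the share of reads outside genes as a covariate, beside group and colony, called 98 members at an adjusted p of 0.05 (edgeR's quasi-likelihood test), against 42.1% of the 11167 genes tested. They were 83 of the 87 members of the large cluster, all positive, 8 of the 11 of the small cluster, all negative, and 7 of the other 52, all negative. Genes of a cluster move together, so these calls are not separate observations and nothing is read from their count against all genes. Among all genes, 23.5% were called positive and 18.6% negative. For GB47831 the slope was 0.21 ± 0.04 (SE) log2 units per percentage point (edgeR, adjusted p = 2.22e-05). Total depth called 0 members and 0% of all genes (edgeR), and 21 members and 15.1% of all genes (1686) reached an unadjusted p below 0.05. Depth was tested with edgeR alone.

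The pattern of the large cluster was not peculiar to the members. Of the 6900 genes, 1667 (24.2%) correlated above 0.7 with the mean deviation of the cluster, and 1584 of these were not in it. The relation changed with level: the median r was 0.49 for genes at 10 to 30 CPM, 0.18 at 30 to 100 CPM, -0.10 at 100 to 300 CPM, -0.19 at 300 to 1000 CPM and -0.15 above. Genes with r under -0.5 made up 4.30% of the 6900. With TMM-scaled CPM in the rule, 36 of the 87 members of the cluster stayed among the top 150, against 11 of the 11 of the small cluster and 42 of the other 52. On that scale the mean r of the 87 genes was 0.74.

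**Figure D4:**
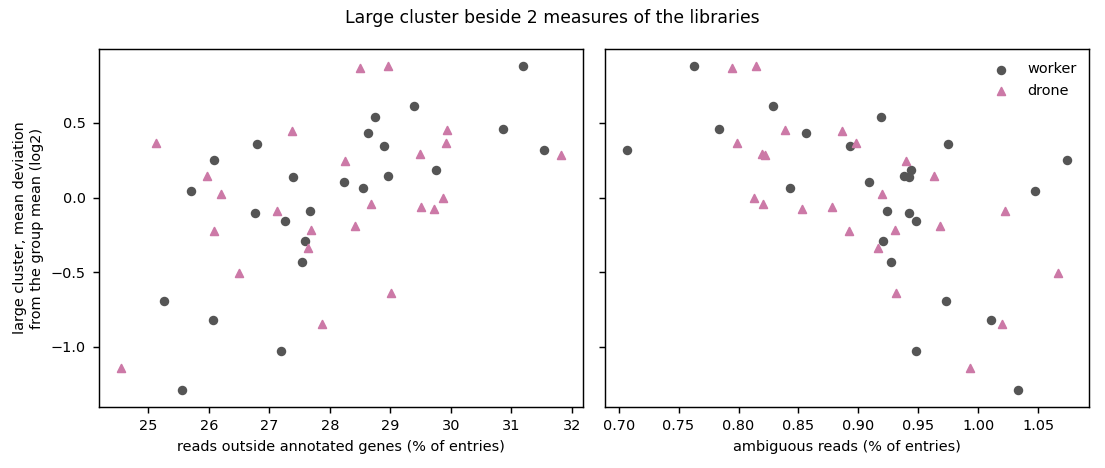
Mean deviation of the large cluster in log2(CPM + 1) for each of the 48 bees against the share of reads outside annotated genes (left, %) and the share of ambiguous reads (right, %). The r values were computed with group means removed from the shares as well, which the axes do not show. The deviation rose with the first (r = 0.57) and fell with the second (r = -0.62). In workers r was 0.69 and -0.56, and in drones 0.41 and -0.71.

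The small cluster was highest in 3 active drones. Its 11 members were GB44387, GB45063, GB42758, GB45062, GB40147, GB51547, GB49684, GB53856, GB48690, GB53009 and GB51615, with mean levels of 14.02 to 46.5 CPM. The leading members were GB44387 (mean r to the rest 0.79) and GB45063 (0.79). GB44387 had 67.3, 72.5 and 76.8 CPM in active drones 6, 9 and 8, while the other 9 active drones ran from 9.52 to 39.7 CPM. In the other groups it ran from 8.76 to 36.2 CPM in active workers (median 22.1), from 16.7 to 40.4 CPM in inactive workers (median 24.2) and from 17.7 to 45.5 CPM in inactive drones (median 22.4). The 3 drones were thus above every other bee for this gene.

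All 3 came from colony 3 but from separate pools, 6, 3 and 1, and the lowest active drone, drone 5, was also from colony 3. The mean deviation of the 11 genes was 1.40 in active drone 8, 1.14 in active drone 9 and 0.95 in active drone 6, and lowest in active drone 5 (-0.98) and active worker 9 (-0.93). Its SD was 0.79 in active drones and 0.29 to 0.44 in the other groups. Colony held 1.38% and pool 2.64% of its variance. Only 53 of the 6900 genes correlated above 0.7 with it, and 42 of those were outside the cluster. The library shares were again taken as deviations from group means. The r of the cluster with the share of reads outside genes was -0.32 (rho -0.32, and -0.29 without 2 bees). With the share of ambiguous reads it was 0.39 (rho 0.37, and 0.43 without 2 bees). How much of the cluster's variation these measures account for was not tested.

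Members with consecutive identifiers moved together. There were 2 such pairs, GB45062 with GB45063 in the small cluster (r = 0.90) and GB52394 with GB52395 (r = 0.90). The median r of the 3564 consecutive pairs among the 6900 genes was 0.20. Reads of adjacent or overlapping genes could be shared or lost in counting, so such pairs are uncertain. GB52394 and GB52395 formed a group of 4 with GB47579 and GB51387, with a mean r of 0.65.

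Colony differences were found among the 52 members outside both clusters. With the groups in the model, 7 members differed between colonies at an adjusted p of 0.05 (edgeR's quasi-likelihood test), which is 4.67% of the members, against 2.59% of the 11167 genes tested. At an unadjusted p below 0.05 were 25 members, against 14% of all genes. None of the 98 members in the clusters was among the 25. Spread between colonies is part of the spread that chose the members, so the share among members is not independent of the rule. Without colony 3 the count was 0, and without colony 1 it was 2.

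GB51782, with a mean of 139 CPM, had the lowest p (edgeR, adjusted p = 0.000566). In drones it ran from 176 to 267 CPM in colony 1 (median 230), from 151 to 205 CPM in colony 2 (median 169) and from 56.7 to 278 CPM in colony 3 (median 88.1). In workers the medians were 146, 115 and 81.3 CPM in the same order. Colony 3 was lowest in both sexes, but 1 drone of colony 3 was the highest of all bees. Colony 3 minus colony 1 was -1.17 ± 0.20 (SE) on the log2 scale in drones and -0.66 ± 0.26 in workers.

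GB46863 (edgeR, adjusted p = 0.000674) was higher in colony 3. Drones of colony 3 had 13.4 to 26.9 CPM (median 22.3), and those of colonies 1 and 2 had medians of 12.3 and 7.68 CPM. All 3 drones of colony 2 were below all 14 of colony 3. Worker medians were 9.83, 11.2 and 17.9 CPM in colonies 1, 2 and 3, and the ranges of colonies 1 and 3 overlapped.

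GB52446 (edgeR, adjusted p = 0.000759) was lower in colony 3. Its 4 workers had 1.26 to 4.28 CPM, below all 10 workers of colony 1, which had 6.92 to 18.3 CPM. Drone medians were 22.4, 13.0 and 8.14 CPM in colonies 1, 2 and 3, with overlapping ranges. Colony 3 minus colony 1 was -2.06 ± 0.49 in workers and -1.49 ± 0.33 in drones on the log2 scale. GB47696 (edgeR, adjusted p = 0.00402) and GB50492 (edgeR, adjusted p = 0.00881) were lower in colony 3 than in colony 1 in both sexes too. In GB47696 the drone medians were 17.0 CPM in colony 1 and 10.7 CPM in colony 3, and among workers they were 10.4 and 5.02 CPM. In GB50492 they were 32.7 and 16.03 CPM for drones, and for workers 15.5 and 7.06 CPM.

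Tested within each sex, colony called 16 members among drones, against 3.35% of all genes, and 2 among workers, against 0.842% (edgeR, adjusted p of 0.05). Spread between colonies within a sex is part of the spread that chose the members, so nothing is read from these counts against all genes. The drones and workers tested share no library, but the numbers per colony were unequal in both. Both worker calls, GB42685 (edgeR, adjusted p = 0.0249) and GB52446 (edgeR, adjusted p = 0.0414), were lost without inactive worker 7, which left 0. GB42685, named after its values were seen, had medians of 92.6, 48.1 and 80.8 CPM in workers of colonies 1, 2 and 3. Members took the same sign of colony 3 minus colony 1 in drones and workers in 66 of 150 cases (44%), and all genes in 50.9%. Members of the large cluster move together, so the 150 are not separate observations, and nothing is read from this difference.

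The lowest p among drones was that of GB51387 (edgeR, adjusted p = 0.000191). Drones of colony 1 had 2.54 to 7.01 CPM, those of colony 2 had 16.6 to 75.5 CPM, and those of colony 3 had 3.92 to 52.2 CPM. Worker medians were 12.2, 8.81 and 9.73 CPM. All 3 drones of colony 2 were above every worker. In GB52394, drones of colony 1 had 3.91 to 14.3 CPM (median 5.24) and those of colony 2 had 15.0 to 25.4 CPM, while worker medians were 19.9, 20.3 and 22.3 CPM.

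A test of the colony by sex interaction, added after seeing the data, called 4 members, against 0.591% of all genes (edgeR, adjusted p of 0.05), and 3 without inactive worker 7. Spread between colonies within a sex also entered the SD that chose the members, so nothing is read from this count against all genes. GB51387 had the lowest p (edgeR, adjusted p = 0.00266), and its colony 3 minus colony 1 difference was 2.41 ± 0.42 in drones and -0.29 ± 0.46 in workers on the log2 scale. The other called members were GB44728, GB50400 and GB52394.

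Pool called 0 members and 0% of the 11212 genes tested (edgeR's quasi-likelihood test over the 47 libraries of pools 1 to 6). An unadjusted p below 0.05 was reached by 2 members and by 3.28% of all genes (368), and pool was tested with edgeR alone. The 3 members with the lowest p were GB50880 (unadjusted p = 0.0103), GB41240 (0.0462) and GB52314 (0.0555), each with an edgeR adjusted p of 0.98. Pool 7 held a single library and was left out of this test.

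A few members, described here by the spread that chose them, spread more widely in drones than in workers. Of the 150, 91 had the higher SD in drones, and 54.4% of the 6900 genes did. In the limma test on absolute deviations 3 members, all wider in drones, passed an adjusted p of 0.05, against 0.269% of the 11167 genes. The test uses the deviations that chose the members, and these 3 reached the limit on pooled SD only through drones: the SD in workers and in drones was 0.23 and 0.68 for GB54315, 0.21 and 0.73 for GB52394, and 0.24 and 0.74 for GB52395. The choice of members therefore favours such calls. Their p-values are given as a description, and nothing is read from their count against all genes. Wider spread in drones was called in 0.215% of all genes and in workers in 0.0537%. GB54315 ran from 46.1 to 94.9 CPM over the 24 workers and from 40.0 to 212 CPM over the 24 drones. Its mean absolute deviation was greater in drones by 0.40 ± 0.09 (SE) on the log2 scale (limma, adjusted p = 0.0150). GB52394 ran from 13.9 to 25.6 CPM in workers and from 3.91 to 25.4 CPM in drones, a difference of 0.44 ± 0.10 (limma, adjusted p = 0.0207). For GB52395, next to it by identifier, the ranges were 14.8 to 31.5 CPM and 4.58 to 32.8 CPM, and the difference was 0.43 ± 0.11 (limma, adjusted p = 0.0400). Workers stayed within a narrow range of both, while drones reached far below it. All 3 also differed between colonies among drones, with edgeR adjusted p of 0.0266, 0.000548 and 0.0236. Drones and workers were drawn unequally from the colonies, and how much of the wider spread in drones goes with colony was not settled: with colony means removed first, 2 members were called.

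**Figure D5:**
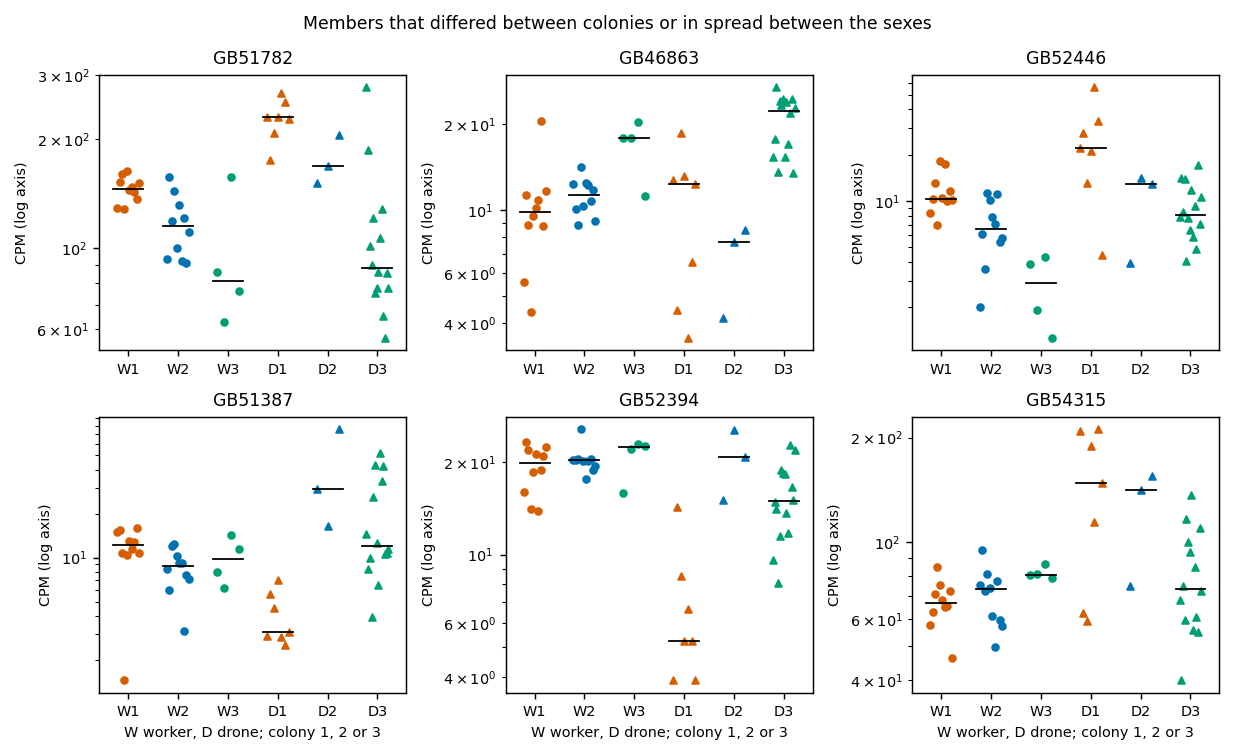
Level of 6 members in CPM on log axes, for workers (W, circles) and drones (D, triangles) of colonies 1, 2 and 3, with a line at each median. Colony 3 had the lowest medians in GB51782 and GB52446 and the highest in GB46863, drones of colony 1 were lowest in GB51387 and GB52394, and drones spread more widely than workers in GB54315.

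In the same count model, 31 members differed between drones and workers, against 45.7% of all genes tested (edgeR, adjusted p of 0.05). Activity called 0 members in workers, against 2.31% of all genes, and 0 in drones, against 3.95%. The rule had set limits on exactly these differences, so nothing is read from these counts.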

How the data were processed

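Each of the 48 deposited files held raw read counts per gene identifier of one bee, made by the authors. Per the file names, they counted reads on assembly Amel4.5 with gene set OGS3.2. Tools listed in the submitters' processing notes, without roles, were HTSeq 0.5.4, TopHat2 2.0.10, edgeR 3.4.2, Trimmomatic 0.30, CASAVA 1.8.2 and SAMtools. Counting mode and strand setting were not given in the sources used here, so overlapping or near-identical genes are uncertain. The 5 summary rows per file (reads outside genes, 28.0% ± 1.73 of entries (SD, n = 48), ambiguous reads and others) stayed out of library sizes and tests. None of the 15314 identifiers matched the name table (assembly Amel_HAv3.1), so markers and names could not be used, and no sequences were used.

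CPM for choosing and describing members was the count over the sum of gene rows, with a pseudocount of 1 for log2. Depth was 6.69 to 27.1 M gene reads, which limits weak genes. The members, lists and tests were chosen with earlier results of these data known. Counts were tested with edgeR 4.0.16 in R 4.3.3 (filterByExpr by group, TMM, quasi-likelihood, two-sided, Benjamini-Hochberg over all genes tested, threshold 0.05), with the 4 groups as covariates and colony too for pool, depth and reads outside genes. Unequal spread was tested with limma 3.58.1 (eBayes with trend, robust) on absolute deviations of log2 CPM (TMM, prior count 2) from group medians. The scripts were tested on simulated data.

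Genes were named by a rule: the 10 highest pooled SDs, the 2 leading members per cluster, the lowest p-values (5 for colony, 3 for pool, 3 for spread by sex, 2 by activity), the 5 widest empty intervals with at least 3 bees on each side, 2 genes on each side of the limit, and the 3 genes most like the top member. Genes named outside the rule were chosen after their values were seen: GB47977, GB48785, GB42685, GB44728, GB50400 and GB52394 where it is named for colony, the consecutive pairs, and the listed members of the small cluster. Alternatives were other scalings, filters, pseudocounts, clustering settings, colonies or libraries left out, limma-voom, DESeq2 1.42.0 and a replicate block.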

Additional observations from a re-analysis of the deposited data

Results flagged for a closer look

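In 4 members there were colony differences that differed between the sexes in the interaction test of edgeR, which covers all 3 colonies. Each is given by its colony 3 minus colony 1 difference on the log2 scale, drones minus workers. The value was 2.70 in GB51387 (adjusted p = 0.00266 in edgeR), where it was 2.41 in drones and -0.29 in workers. It was 1.56 in GB44728 (edgeR, adjusted p = 0.0160), where drones of colony 1 had a median of 4.97 CPM and those of colonies 2 and 3 had 14.8 and 13.7 CPM, beside worker medians of 11.1, 7.53 and 8.59 CPM. It was 0.68 in GB50400 (edgeR, adjusted p = 0.0160), whose drone median was 46.6 CPM in colony 2, against 13.9 and 17.3 CPM in colonies 1 and 3, while the worker median of colony 2, 14.2 CPM, was the lowest of the 3. It was 1.08 in GB52394 (edgeR, adjusted p = 0.0450), with 1.15 in drones and 0.08 in workers. Only 3 drones came from colony 2 and 4 workers from colony 3.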

How the results depend on the processing

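Of 109 recomputed values, 98 stayed within 1.5 times the reported count. The set of 150 kept 89 members with TMM-scaled CPM, 88 with a minimum mean of 5 CPM and 76 with a minimum of 20 CPM, which are the members that reach 20 CPM; leaving out each library kept 115 to 145, with the fewest without inactive worker 7. The large cluster held 82 to 87 of its genes in all settings run. The 7 colony calls became 14 with DESeq2, 2 without colony 1 and 0 without colony 3. Without inactive worker 7, left out after seeing the data, the worker colony calls fell from 2 to 0, the interaction calls from 4 to 3 and the spread by sex calls from 3 to 2. Drone colony calls went from 16 to 17 without this library. Calls for reads outside genes went from 98 to 93 members, and from 42.1% to 37.1% of all genes. The mean r of the large cluster went from 0.80 to 0.78. The causes were not tested, except that fewer colonies mean fewer bees. Weak genes and small colonies (3 drones, 4 workers) limit precision.

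With the replicate number as a block, colony calls went from 7 to 0, from 2 to 0 in workers and from 16 to 1 in drones, and interaction calls from 4 to 1. Same-numbered pairs had a median r of 0.073, against -0.0021 for pairs of other numbers. Of 72 same-numbered pairs 30 correlated above 0.1, and 9 of 48 libraries correlated best with their own number. These values do not settle whether the numbers pair the bees. Replicate numbers run in colony order within groups, so the block takes up colony.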
